A study of Mus musculus with 13 samples.

Results

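The expression of 10 genes of bone morphogenetic protein (BMP) signalling, 4 receptors (Bmpr1b, Bmpr1a, Acvr1 and Bmpr2), 3 ligands (Bmp2, Bmp4 and Bmp7) and 3 target genes (Id1, Id2 and Id3), was followed in mouse neuroblastoma and adrenal gland. The genes were taken by symbol with every probe set annotated to that symbol alone. A probe set is the group of short oligonucleotides that reads 1 transcript on an Affymetrix array. This gave 25 of the 45037 probe sets tested and 10 of the 18193 genes. Each gene is read from its brightest probe set (by mean over the arrays), and its other probe sets are given beside it.

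Neuroblastoma is a tumour of sympathetic nerve precursors that occurs mainly in young children, and the study set tumours of 3 transgenic mouse models against normal adrenal gland. The tumours carried a transgene for mutated ALK, a receptor tyrosine kinase (mutALK, 3 arrays), for MYCN, a transcription factor (MYCN, 4 arrays), or both transgenes (double transgenic, 3 arrays), and the adrenal gland had 3 arrays labelled normal. All mice were C57BL/6, and transgene expression was specific to the neural crest. Tumour mice were followed until a tumour could be felt, and neither ages nor the mutation in ALK are given in the sources used here. Whether every array comes from its own animal is not stated, so the p-values rest on a spread between samples that may in part be technical. The double transgenic arrays have titles in another style and sample numbers outside the consecutive run of the other arrays. Whether they were processed separately is not stated. An effect of that could not be told apart from genotype in comparisons with this group.

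The adrenal gland is cortex around a medulla of neural crest origin, and the arrays showed both. The mean log2 level of 10 adrenal cortex markers was 5.47 to 5.59 in mutALK, 5.67 to 5.81 in MYCN and 5.41 to 7.11 in the double transgenic tumours, against 11.53 to 12.92 in adrenal gland. The mean of 11 chromaffin and sympathetic markers, the lineage of the labelled tumours, was 11.32 to 11.69, 9.8 to 10.21 and 10.36 to 10.86 in those tumours, against 9.23 to 10.46 in adrenal gland. Some arrays stood apart. The mean of 10 liver markers was above 8 in 5 arrays (mutALK 1 and 3, MYCN 2, double transgenic 1 and adrenal 2; 8.96 to 12.36) and 4.49 to 5.98 in the other 8. Double transgenic 1 also had the highest adrenal cortex mean of the tumour arrays (7.11, against 5.41 and 5.72 in the other double transgenic arrays). Its Hsd3b1, a cortex marker, was at 9.43, against 3.59 and 3.89 in those arrays. Adrenal 2 also read 9.89 for 8 neuronal markers, against 5.48 and 6.48 in the other adrenal arrays. It likewise read higher for 5 Schwann cell markers (8.92, against 6.27 and 6.06) and 5 kidney markers (6.43, against 4.74 and 4.75). By Xist and Y-linked genes 7 arrays were female (2 mutALK, 1 MYCN, 1 double transgenic and 3 adrenal). Of the arrays that share a number in their titles, mutALK 2 read female and mutALK 3 male, so they came from different animals. MYCN 2 and 3, the other such pair, both read male. Y-linked probe sets read 2.73 to 3.53 in female arrays, so a difference against levels near that range may be a lower bound. Array medians lay between 5.8 and 5.9.

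BMPs are secreted proteins of the TGF-beta family. A ligand dimer joins type II receptors such as Bmpr2 to type I receptors such as Bmpr1a, Bmpr1b and Acvr1, the type I receptor phosphorylates receptor-regulated SMAD proteins, and these move with Smad4 to the nucleus, where the Id genes are classic targets. Id proteins lack a DNA-binding region and hold E proteins (Tcf3, Tcf4 and Tcf12) away from E-box DNA, and in the embryo BMP from the dorsal aorta helps to start the sympathetic lineage from neural crest.

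Promoter windows of 300 bases (250 before to 50 after the annotated start, RefSeq, mouse build GRCm38.p6) were held for 7 of the 10 genes (not for Id1, Bmp2 or Bmp7). Those of Id2 and Id3 are shown because the Id genes were lower together in the tumours, with that of Id4, the remaining Id gene, beside them. Capitals mark GGCGCC, a GC-rich element known to respond to BMP SMADs, and CANNTG, the E box, whose form CACGTG is bound by MYC proteins. Each of these reads the same on both strands. Id2 at chr12:25096043-25096342 (minus strand) held GGCGCC starting 231 bases before the start and an E box 196 bases before it.
Id2: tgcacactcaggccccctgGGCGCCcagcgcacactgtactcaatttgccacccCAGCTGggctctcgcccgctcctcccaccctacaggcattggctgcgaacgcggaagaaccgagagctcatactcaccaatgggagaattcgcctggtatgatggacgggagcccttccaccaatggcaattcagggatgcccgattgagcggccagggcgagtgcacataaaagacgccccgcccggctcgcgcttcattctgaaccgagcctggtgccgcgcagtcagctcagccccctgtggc
Id3 at chr4:136143572-136143871 (plus strand) held neither motif in this window.
Id3: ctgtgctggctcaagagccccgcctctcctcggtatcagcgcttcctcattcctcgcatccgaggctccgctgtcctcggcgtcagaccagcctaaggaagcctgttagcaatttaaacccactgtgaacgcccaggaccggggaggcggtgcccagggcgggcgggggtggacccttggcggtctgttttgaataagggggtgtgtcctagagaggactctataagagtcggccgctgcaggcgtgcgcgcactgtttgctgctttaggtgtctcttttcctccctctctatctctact
Id4 at chr13:48260866-48261165 (plus strand) held GGCGCC starting 148 bases before the start.
Id4: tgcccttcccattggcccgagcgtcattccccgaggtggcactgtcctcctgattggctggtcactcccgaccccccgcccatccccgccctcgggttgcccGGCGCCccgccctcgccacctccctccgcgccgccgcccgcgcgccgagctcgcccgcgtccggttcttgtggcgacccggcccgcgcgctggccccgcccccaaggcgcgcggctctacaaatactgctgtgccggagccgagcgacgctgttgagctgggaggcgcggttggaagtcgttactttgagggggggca
Of 32851 mouse promoters in the same table, 11.9% held GGCGCC, 72.3% CANNTG and 7.15% CACGTG. Among the 10 genes GGCGCC was also in the windows of Bmpr1a and Bmpr2, and CACGTG was in that of Bmp4. These matches describe the letters only.

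Against adrenal gland the ligands and Id genes were lower in each tumour group, Bmpr1b was higher, and the other receptors moved little. Of the 10 genes 7 were called in mutALK tumours (1 higher, 6 lower), beside 40.9% of all genes (20.5% higher, 20.3% lower). In MYCN tumours 9 were called (1 higher, 8 lower), beside 49.1% of all genes (25% higher, 24.2% lower). In the double transgenic tumours it was also 9 (1 higher, 8 lower), beside 47.6% (23.9% higher, 23.7% lower). Called means an adjusted p under 0.05 in limma's test, adjusted by Benjamini-Hochberg over all 45037 probe sets. The median log2 difference of the 10 genes was -1.45, -1.47 and -1.42 in the mutALK, MYCN and double transgenic tumours, beside medians of all genes of 0.002, -0.0182 and -0.03. Tumour and adrenal arrays did not overlap for 8, 7 and 8 of the 10 genes in the mutALK, MYCN and double transgenic tumours, beside 48.2%, 53.4% and 53.2% of all genes. Over all 25 probe sets 16 were called in mutALK (3 higher, 13 lower), 16 in MYCN (1 higher, 15 lower) and 18 in the double transgenic tumours (2 higher, 16 lower), beside 33.2%, 41.7% and 41.4% of all probe sets. These comparisons share the 3 adrenal arrays.

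**Figure D1:**
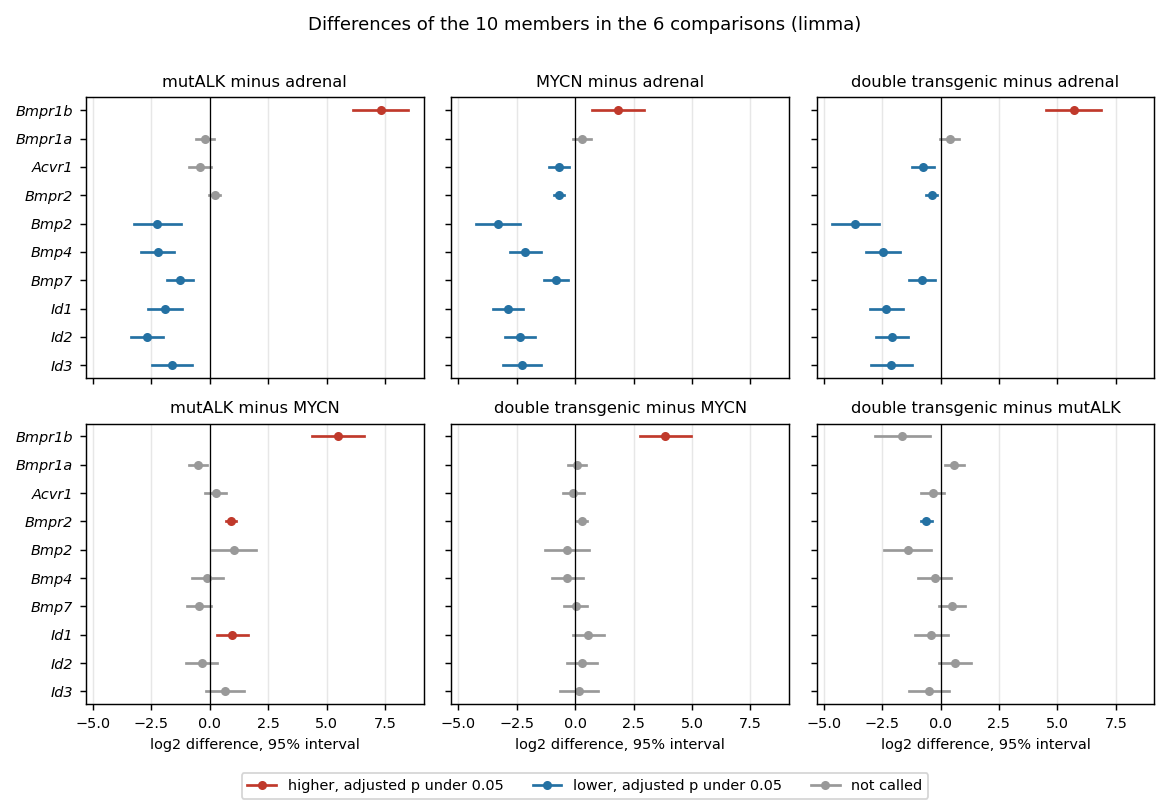
Log2 difference of each of the 10 genes in the 6 comparisons, with its 95% interval from limma's fit over all 13 arrays; red is called higher, blue called lower and grey not called. Bmpr1b lies to the right of 0 in each comparison except double transgenic minus mutALK, and the ligands and Id genes lie to the left of 0 in the upper row.

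Between tumour groups fewer of the 10 genes differed, at about the share of all genes. In mutALK minus MYCN 3 were called, each higher (Bmpr1b, Bmpr2 and Id1), beside 29.4% of all genes (13% higher, 16.4% lower). Double transgenic minus MYCN called Bmpr1b alone, higher, beside 12.2% of all genes (5.94% higher, 6.25% lower), and double transgenic minus mutALK called Bmpr2 alone, lower, beside 13.8% (8.02% higher, 5.74% lower). Their groups did not overlap for 4, 2 and 6 of the 10 genes in mutALK minus MYCN, double transgenic minus MYCN and double transgenic minus mutALK, beside 40.6%, 30.6% and 32.9% of all genes. The medians of the 10 genes in these comparisons were 0.46, 0.13 and -0.37, beside 0.0026, -0.0308 and -0.0224 for all genes.

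Among receptors, Bmpr1b, a type I receptor, had differences of a size none of the other 9 genes reached. Its brightest probe set, 1437312_at, was at 12.14, 12.24 and 11.19 in mutALK tumours, 7.21, 5.73, 6.69 and 5.85 in MYCN tumours and 9.63, 9.89 and 11.16 in the double transgenic tumours, against 4.34, 5.44 and 3.84 in adrenal gland. The 4 groups did not overlap, although the lowest mutALK array (11.19) lay only just above the highest double transgenic array (11.16). Against adrenal gland Bmpr1b was higher by 7.31 ± 0.54 log2 units in mutALK tumours (SE; 159-fold; adjusted p = 2.46e-06, limma) and by 5.69 ± 0.54 in the double transgenic tumours (51.6-fold; 7.25e-06). In MYCN tumours it was higher by 1.83 ± 0.5 (3.56-fold; 0.0111). Between tumours it was higher in mutALK tumours than in MYCN tumours by 5.48 ± 0.5 (44.8-fold; 4.11e-05) and in double transgenic than in MYCN tumours by 3.86 ± 0.5 (14.5-fold; 0.00113). Double transgenic minus mutALK was -1.63 ± 0.54 (95% interval -2.8 to -0.45) and was not called (adjusted p = 0.0691).

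The rise of Bmpr1b in MYCN tumours rested on less than the others: its call was lost with sex as a covariate (1.67; limma's adjusted p = 0.0644), when adrenal 3 was left out (1.48, 0.0553) and with the mean of the Bmpr1b probe sets (0.72, 0.109). That mean also gave smaller values for mutALK (4.68) and double transgenic (2.63) minus adrenal and for double transgenic minus MYCN (1.91), all still called. Double transgenic minus mutALK gained a call without mutALK 3 (-1.96, 0.0499), double transgenic 3 (-2.09, 0.0392) or adrenal 2 (-1.63, 0.0425), and with the mean of the probe sets (-2.05, 0.0065). Adrenal 2, the adrenal array with neuronal, Schwann cell and kidney transcripts, had the highest Bmpr1b of its group. Without it the differences against adrenal gland were 7.76 in mutALK, 2.28 in MYCN and 6.14 in the double transgenic tumours. Chromaffin and sympathetic markers moved partly with Bmpr1b between tumours. Of 11, 5 were called higher in mutALK than in MYCN tumours and none lower, beside 29.4% of all genes called. In double transgenic against MYCN tumours 1 was higher and 1 lower, beside 12.2%. In double transgenic against mutALK tumours 3 were lower (Dbh, Chgb and Gata3) and none higher, beside 13.8%. Of 8 neuronal markers 7 were called higher than in adrenal gland in each tumour group and none between tumours, with list means of 11.79 to 12.15 in mutALK, 10.67 to 11.04 in MYCN and 11.48 to 11.83 in the double transgenic tumours, against 5.48 to 9.89 in adrenal gland. Of all genes 20.5%, 25% and 23.9% were called higher than in adrenal gland in the mutALK, MYCN and double transgenic tumours. Of 5 Schwann cell markers measured 2 were higher in mutALK than in MYCN tumours, beside 13% of all genes (list means 6.53 to 8.38, against 5.31 to 5.7). The part of these cells in the Bmpr1b differences was not tested.

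The other Bmpr1b probe sets gave the same order of group means, with smaller differences from adrenal gland and larger ones between double transgenic and mutALK tumours. At 1443720_s_at Bmpr1b was at 7.38, 7.49 and 6.1 in mutALK, 3.06, 2.75, 3.3 and 2.75 in MYCN and 3.61, 4.29 and 5.31 in the double transgenic tumours, against 2.77, 2.62 and 2.74 in adrenal gland. At 1422872_at it was at 6.3, 6.3 and 5.34 in mutALK, 3.58, 4.01, 3.49 and 3.38 in MYCN and 3.82, 3.71 and 4.62 in the double transgenic tumours, against 3.41, 3.7 and 3.51 in adrenal gland. MYCN and adrenal arrays lay at or near the level of absent Y-linked genes on both, so differences against them may be lower bounds. Against adrenal gland mutALK tumours were called on both (4.28 and 2.44; adjusted p = 1.73e-05 and 7.28e-05) and MYCN tumours on neither (0.26 and 0.07; 0.656 and 0.868). Double transgenic tumours were called against adrenal gland on 1443720_s_at (1.69, 0.0063) and not on 1422872_at (0.51, 0.195). Both called double transgenic below mutALK tumours (-2.59, 0.00428; -1.93, 0.00329), the comparison in which the brightest probe set missed the threshold.

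**Figure D2:**
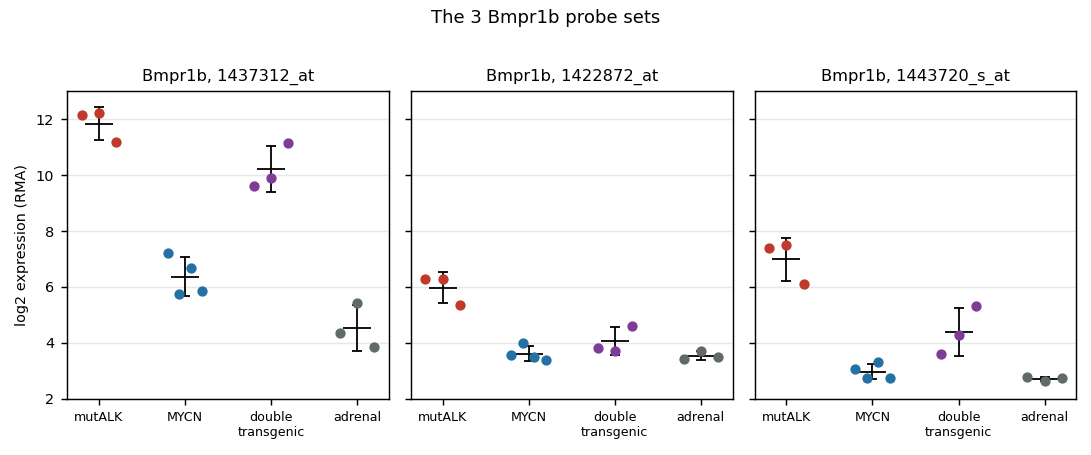
Log2 expression of Bmpr1b on its 3 probe sets, with a point per array in the mutALK, MYCN and double transgenic tumours and adrenal gland, the mean as a line and the SD as bars. On 1437312_at the groups do not overlap, while on the dimmer probe sets MYCN tumours and adrenal gland lie together between 2.62 and 4.01.

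Bmpr2, the type II receptor, moved the other way from Bmpr1b in MYCN tumours. Its probe set 1434310_at was at 11.77, 11.64 and 11.73 in mutALK, 10.76, 10.8, 10.88 and 10.81 in MYCN and 10.89, 11.23 and 11.23 in the double transgenic tumours, against 11.53, 11.39 and 11.57 in adrenal gland. Every mutALK array lay above every adrenal array, and every MYCN and double transgenic array below. Bmpr2 fell by 0.69 ± 0.1 in MYCN tumours (1.61-fold lower; adjusted p = 0.000179) and fell by 0.38 ± 0.11 in the double transgenic tumours (0.0139). In mutALK tumours the difference from adrenal gland was 0.21 ± 0.11 (95% interval -0.02 to 0.45) and not called. Bmpr2 was higher in mutALK tumours than in MYCN tumours by 0.9 ± 0.1 (1.87-fold; 0.000123) and lower in the double transgenic tumours than in mutALK tumours (-0.6 ± 0.11, 0.00715). The double transgenic call against adrenal gland was lost without double transgenic 1 (-0.27, 0.0537), adrenal 3 (-0.35, 0.0505) or the 5 liver arrays (-0.33, 0.0701) and with only the arrays compared (0.0982), and the call against mutALK tumours without the liver arrays (-0.42, 0.118) and with only the arrays compared (0.0654). With the mean of its probe sets Bmpr2 was at -0.58 in double transgenic minus adrenal and 0.47 in mutALK minus MYCN, both still called. Without double transgenic 1, double transgenic minus MYCN gained a call for Bmpr2 (0.41, 0.0222; with it 0.3, 0.0815). Against adrenal gland the probe set 1419616_at was lower in MYCN (-0.63, 0.045) and double transgenic tumours (-1.27, 0.00135). In double transgenic minus MYCN it went the other way from 1434310_at (-0.64, limma's adjusted p = 0.104, not called). Every double transgenic array lay below every MYCN array there, so the direction of Bmpr2 in that comparison depends on the probe set read. The third probe set, 1441652_at, was called in no comparison.

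Acvr1, a type I receptor also known as ALK2 and unrelated to the ALK kinase of these tumours, was slightly lower. Its probe set 1448460_at was at 9.04, 9.16 and 8.99 in mutALK, 8.33, 8.69, 9.14 and 9.03 in MYCN and 8.74, 8.79 and 8.63 in the double transgenic tumours, against 9.58, 9.07 and 9.8 in adrenal gland. Double transgenic arrays lay below every adrenal array, while mutALK and MYCN arrays overlapped with adrenal 2. The fall was called in MYCN (-0.68 ± 0.2, adjusted p = 0.0168) and double transgenic tumours (-0.76 ± 0.22, 0.0138) and not in mutALK tumours (-0.42 ± 0.22, 0.175). Without adrenal 3 the Acvr1 calls in MYCN and double transgenic tumours were lost (-0.53, 0.0816; -0.61, 0.0599), as they were with sex as a covariate (-0.57, 0.11; -0.66, 0.0683), and the MYCN call also without adrenal 1 (-0.63, 0.0597) or with only the arrays compared (0.0604). The mean of the Acvr1 probe sets gave -0.39 in MYCN tumours (0.037). Without adrenal 2 mutALK tumours were called too (-0.62, 0.0369). The second probe set of Acvr1, 1416786_at, was likewise called lower in MYCN (-0.49, 0.0459) and double transgenic tumours (-0.85, 0.00355), and 1416787_at in none.

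Bmpr1a, the most widely expressed of the type I BMP receptors in general, passed no test on its brightest probe set. That probe set, 1425492_at, was at 9.7, 9.52 and 9.7 in mutALK, 10.19, 10.15, 10.09 and 10.12 in MYCN and 10.39, 10.22 and 10.07 in the double transgenic tumours, against 10.13, 9.32 and 10.07 in adrenal gland. Adrenal 2 lay below the other adrenal arrays and below every tumour array. The differences from adrenal gland were -0.2, 0.3 and 0.39 in the mutALK, MYCN and double transgenic tumours, with 95% intervals of -0.6 to 0.2, -0.08 to 0.68 and -0.02 to 0.79. Without adrenal 2 Bmpr1a was called lower in mutALK tumours (-0.46, adjusted p = 0.00937), and without adrenal 1 it was called higher in the double transgenic tumours (0.53, with an adjusted p just under the threshold). The differences of mutALK from MYCN tumours (-0.5, 0.056) and of double transgenic from mutALK tumours (0.58, 0.0589) lay just above the threshold, and both passed without adrenal 2 (0.00286 and 0.00506).

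The 6 Bmpr1a probe sets did not agree. Against adrenal gland 1425493_at and 1425494_s_at were lower in mutALK (-0.95, adjusted p = 0.0158; -0.9, 0.0132) and double transgenic tumours (-0.84, 0.0233; -0.83, 0.0164), and not called in MYCN tumours. The dimmest, 1445413_at, was lower in mutALK (-1.17, 0.000239), MYCN (-1.23, 5.79e-05) and double transgenic tumours (-1.07, 0.000315). The remaining 1425491_at and 1451729_at were called in none. With the mean of all Bmpr1a probe sets the difference was -0.72 in mutALK (0.00699) and -0.56 in the double transgenic tumours (0.0215), so a direction for Bmpr1a against adrenal gland depends on the probe set read.

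**Figure D3:**
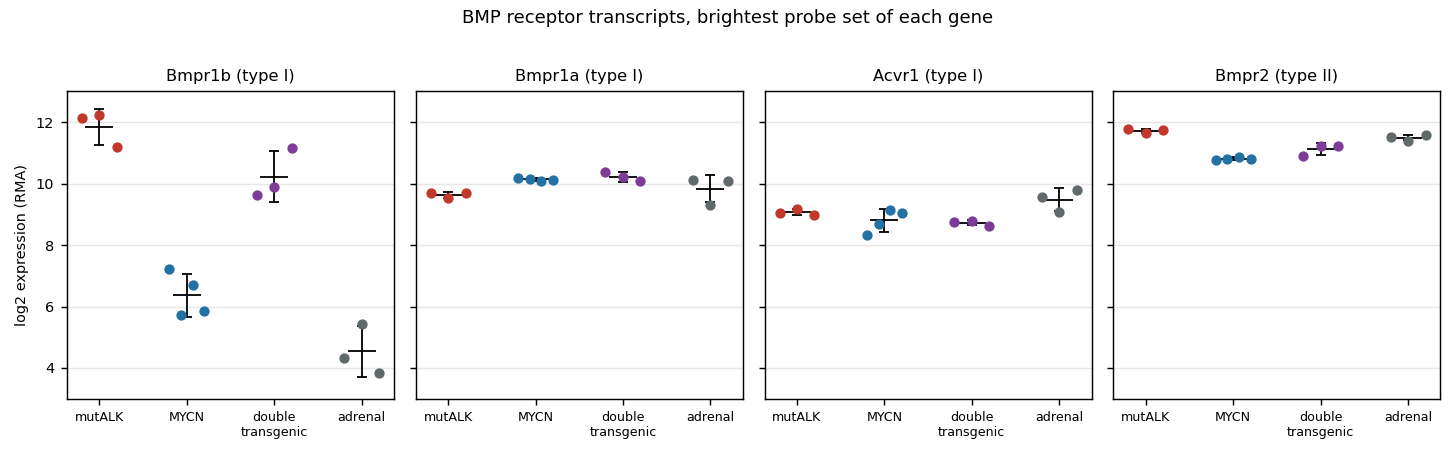
Log2 expression of the brightest probe set of Bmpr1b, Bmpr1a, Acvr1 and Bmpr2, with a point per array in the mutALK, MYCN and double transgenic tumours and adrenal gland, the mean as a line and the SD as bars. Bmpr1b spans 7.31 log2 units between group means and the other receptors at most 0.9.

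The 3 ligands were lower in each tumour group than in adrenal gland. Bmp2, a ligand with a high affinity for Bmpr1a and Bmpr1b, was at 7.45, 6.46 and 5.85 in mutALK, 5.25, 5.25, 5.57 and 6.07 in MYCN and 5.94, 4.62 and 4.99 in the double transgenic tumours, against 9.12, 8.08 and 9.26 in adrenal gland. No tumour array reached the lowest adrenal array. Bmp2 fell by 2.23 ± 0.46 in mutALK tumours (4.7-fold lower; adjusted p = 0.00257), fell by 3.29 ± 0.43 in MYCN tumours (9.76-fold lower; 6.65e-05) and fell by 3.64 ± 0.46 in the double transgenic tumours (12.5-fold lower; 6e-05). Between tumours the order was mutALK, MYCN and double transgenic, with double transgenic minus mutALK at -1.41 ± 0.46 (0.0663) and mutALK minus MYCN at 1.05 ± 0.43 (0.103), neither called. Without mutALK 3 both were called for Bmp2 (-1.77, 0.0339; 1.42, 0.0435), and double transgenic minus mutALK also without double transgenic 1 (-1.78, 0.0298) or adrenal 2 (-1.41, 0.0425).

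Bmp4, the close relative of Bmp2 that acts on neural crest in the embryo, differed between tumours and adrenal gland and little among tumours. It was at 4.87, 4.99 and 5.15 in mutALK, 5.48, 4.79, 4.9 and 5.22 in MYCN and 5.09, 4.31 and 4.89 in the double transgenic tumours, against 6.99, 8.04 and 6.64 in adrenal gland. Adrenal 2 was the highest and no tumour array reached the adrenal range. The difference was -2.22 ± 0.32 in mutALK (adjusted p = 0.000273), -2.12 ± 0.3 in MYCN (0.000137) and -2.46 ± 0.32 in the double transgenic tumours (8.62e-05), or 4.66-fold, 4.36-fold and 5.5-fold lower. Between tumours the Bmp4 differences were -0.1 (95% interval -0.76 to 0.57) for mutALK minus MYCN, -0.34 (-1 to 0.33) for double transgenic minus MYCN and -0.24 (-0.95 to 0.47) for double transgenic minus mutALK.

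Bmp7, a ligand that also signals through Acvr1, had smaller differences on its brightest probe set than on its others. On 1435479_at it was at 6.17, 6.19 and 6.05 in mutALK, 6.38, 6.62, 6.42 and 7 in MYCN and 6.98, 6.46 and 6.44 in the double transgenic tumours, against 7.34, 6.94 and 7.96 in adrenal gland. The mutALK arrays lay below the adrenal range, whereas MYCN 4 and double transgenic 1 reached into it, above adrenal 2. The difference was -1.27 ± 0.25 in mutALK (adjusted p = 0.00189), -0.81 ± 0.23 in MYCN (0.0147) and -0.79 ± 0.25 in the double transgenic tumours (0.024). Without adrenal 3 the Bmp7 calls in MYCN and double transgenic tumours were lost (-0.53, 0.0695; -0.51, 0.0958), as with sex as a covariate (-0.51, 0.147; -0.52, 0.139), and that in the double transgenic tumours also without double transgenic 2 (-0.7, 0.0806) or 3 (-0.69, 0.0781) or with only the arrays compared (0.0928). The double transgenic difference was -1.2 without the liver arrays (0.0119) and without adrenal 2 and double transgenic 1 (0.00208). With the mean of the Bmp7 probe sets the differences were -1.94, -1.77 and -1.79, each called. On 1418910_at the differences were -2.94, -2.99 and -2.95 in the mutALK, MYCN and double transgenic tumours and on 1432410_a_at -1.62, -1.51 and -1.62, each called, with tumour arrays between 3.34 and 4.41 and adrenal arrays between 4.26 and 7.72. No tumour array was above an adrenal array on either.

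**Figure D4:**
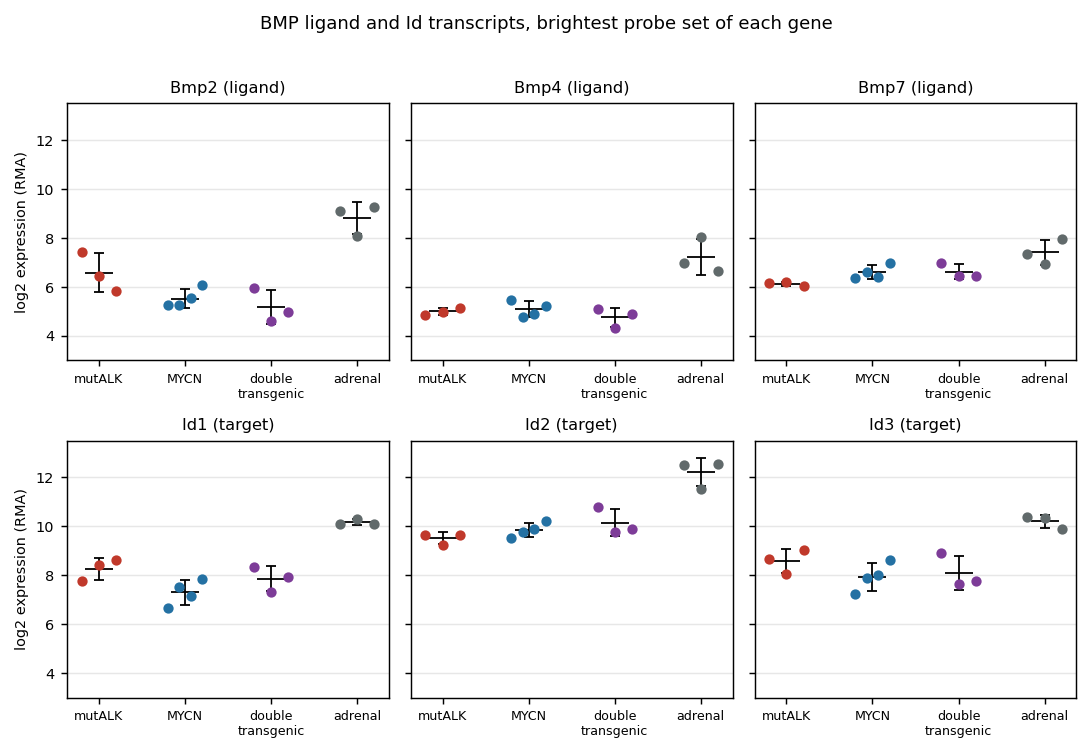
Log2 expression of the brightest probe set of Bmp2, Bmp4, Bmp7, Id1, Id2 and Id3, with a point per array in the mutALK, MYCN and double transgenic tumours and adrenal gland, the mean as a line and the SD as bars. For each gene except Bmp7 every tumour array lies below every adrenal array.

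The 3 Id genes fell in each tumour group, and on their brightest probe sets no tumour array reached the adrenal range. Id1 was at 7.76, 8.42 and 8.61 in mutALK, 6.68, 7.51, 7.17 and 7.85 in MYCN and 8.35, 7.33 and 7.91 in the double transgenic tumours, against 10.1, 10.29 and 10.11 in adrenal gland. It fell by 1.91 ± 0.32 in mutALK tumours (3.75-fold lower; adjusted p = 0.000733), fell by 2.87 ± 0.3 in MYCN tumours (7.3-fold lower; 1.31e-05) and fell by 2.31 ± 0.32 in the double transgenic tumours (4.94-fold lower; 0.000133). The adrenal arrays lay closer together (SD 0.11) than the mutALK (0.45), MYCN (0.5) or double transgenic arrays (0.51). Id1 was also higher in mutALK than in MYCN tumours by 0.96 ± 0.3 (1.95-fold; 0.0383), with mutALK 1 (7.76) below MYCN 4 (7.85). That call was lost under 11 of 25 alternatives, among them leaving out mutALK 2 (0.88, 0.129), mutALK 3 (0.79, 0.134), MYCN 1 (0.75, 0.0911), MYCN 2 (1.03, 0.0573), MYCN 3 (0.92, 0.0879), double transgenic 3 or adrenal 1 (0.96, 0.0523 and 0.0521). The others were the number shared by titles of 2 mutALK and of 2 MYCN arrays as a random block (0.9, 0.0865), sex as a covariate (0.82, 0.0982), leaving out the liver arrays (1.18, 0.111) and only the arrays compared (0.96, 0.0533).

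Id2, which is also known for its role in lymphoid cells, was at 9.64, 9.23 and 9.66 in mutALK, 9.54, 9.77, 9.89 and 10.21 in MYCN and 10.77, 9.77 and 9.87 in the double transgenic tumours, against 12.52, 11.54 and 12.54 in adrenal gland. Adrenal 2 was the lowest of its group and double transgenic 1 the highest tumour array. Both carried liver transcripts, and double transgenic 1 also had the highest adrenal cortex mean of the tumour arrays (7.11). Id2 fell by 2.69 ± 0.31 in mutALK tumours (6.47-fold lower; adjusted p = 5.91e-05), fell by 2.35 ± 0.29 in MYCN tumours (5.09-fold lower; 5.03e-05) and fell by 2.06 ± 0.31 in the double transgenic tumours (4.17-fold lower; 0.000251). Without both of those arrays the Id2 differences were -3.02, -2.68 and -2.71. The probe set 1422537_a_at differed by -3.38, -3.19 and -2.49 in the same order, each called. On the dimmest Id2 probe set, 1453596_at, the differences were -1.98 (0.0133) and -1.67 (0.0181) in mutALK and MYCN tumours, while double transgenic minus adrenal, at -0.95, was not called (0.186). There MYCN and double transgenic arrays (up to 4.9 and 5.7) overlapped with adrenal 2 (4.83). MYCN tumours, at 9.85 ± 0.28 (SD, n = 4), did not differ from mutALK tumours at 9.51 ± 0.24 (n = 3) beyond the threshold (mutALK minus MYCN -0.34, 95% interval -0.99 to 0.3).

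Id3 was at 8.65, 8.07 and 9.03 in mutALK, 7.22, 7.9, 8.01 and 8.61 in MYCN and 8.9, 7.64 and 7.77 in the double transgenic tumours, against 10.38, 10.34 and 9.88 in adrenal gland. The tumour groups overlapped one another and stayed below the adrenal range. Id3 fell by 1.62 ± 0.39 in mutALK tumours (3.07-fold lower; adjusted p = 0.00715), fell by 2.27 ± 0.37 in MYCN tumours (4.81-fold lower; 0.000347) and fell by 2.1 ± 0.39 in the double transgenic tumours (4.28-fold lower; 0.00106). Between tumour groups Id3 passed no test (mutALK minus MYCN 0.65, 0.254; double transgenic minus MYCN 0.17, 0.842; double transgenic minus mutALK -0.48, 0.482). Id1 and Id3 are read by a single probe set each. Without the 5 liver arrays the differences of the ligands and Id genes against adrenal gland were all still called, between -4.39 (Bmp2 in the double transgenic tumours) and -1.05 (Bmp7 in MYCN tumours). That leaves mutALK with 1 array, whose spread is taken from the other groups.

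Markers of some other cell types fell beside the ligands and Id genes, and those of others did not. Cells in the adrenal samples need not all be cells of the gland itself. All 12 endothelial markers were called lower in each tumour group, with list means of 6.74 to 7.45 in mutALK, 6.59 to 7.83 in MYCN and 5.58 to 6.15 in the double transgenic tumours, against 9.02 to 9.11 in adrenal gland. Between tumours 9 of these 12 were lower in double transgenic than in MYCN tumours, beside 6.25% of all genes. In double transgenic against mutALK tumours 9 were lower as well, beside 5.74%. All 5 fat cell markers were lower in each tumour group (list means 6.8 to 8.94 in mutALK, 6.74 to 10.01 in MYCN and 5.66 to 6.32 in the double transgenic tumours, against 11.52 to 12.99 in adrenal gland). Of 8 fibroblast markers 2, 5 and 7 were lower in the mutALK, MYCN and double transgenic tumours. Their list means were 8.47 to 10.04, 8.53 to 9.36 and 6.98 to 8.48, against 9.5 to 10.76 in adrenal gland. Of all genes 20.3%, 24.2% and 23.7% were called lower in these groups, so the mutALK fibroblast count was near that share. Macrophage markers did not fall as a set: of 8, 0, 1 and 2 were lower and 1, 1 and 0 higher in the same order. Of 5 Schwann cell markers 0, 2 and 0 were lower and 0 higher, and of 5 kidney markers 1 was lower in each group. The adrenal cortex markers were all lower, as given above. The part of these cells in the lower ligand and Id levels was not tested, and in bulk samples fewer cells of a type and less RNA per cell cannot be told apart.

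Elsewhere in the pathway 46 of 50 listed genes were measured, and against adrenal gland 20 were called in mutALK (8 higher, 12 lower), 24 in MYCN (9 higher, 15 lower) and 22 in the double transgenic tumours (7 higher, 15 lower), near the 40.9%, 49.1% and 47.6% of all genes. Their median differences were -0.14, -0.26 and -0.09. Between tumours 14 were called in mutALK minus MYCN (7 higher, 7 lower), 7 in double transgenic minus MYCN (4 higher, 3 lower) and 10 in double transgenic minus mutALK (6 higher, 4 lower), beside 29.4%, 12.2% and 13.8% of all genes.

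Among the SMADs both inhibitory members were lower in each tumour group, and Smad1 and Smad4 were higher. Smad6, an inhibitory SMAD that is itself a BMP target, was at 4.35, 4.41 and 5.37 in mutALK, 4.16, 4.1, 4.07 and 4.41 in MYCN and 4.05, 3.7 and 3.8 in the double transgenic tumours, against 7.47, 7.7 and 7.55 in adrenal gland. The differences from adrenal gland were -2.86 ± 0.23 (adjusted p = 4.89e-06), -3.39 ± 0.22 (3.83e-07) and -3.73 ± 0.23 (5.75e-07). Smad6 was also lower in the double transgenic tumours than in mutALK tumours (-0.86, 0.0336). In that comparison mutALK 3 (5.37) lay apart from the other mutALK arrays (4.35 and 4.41), and the call was not put through the alternatives. Smad7, the other inhibitory SMAD, and Bambi, a decoy receptor (-1, -0.75 and -1.64), were also called lower in each. Smad1, a receptor-regulated SMAD of the BMP branch, rose by 1.58 ± 0.24 in mutALK (0.00032), 1.58 ± 0.22 in MYCN (0.000111) and 1.74 ± 0.24 in the double transgenic tumours (0.000106), with every tumour array (10.66 to 11.65) above every adrenal array (9.54 to 9.8). Smad4, the shared partner, was called higher in each as well. Smad5, another signalling SMAD, was higher in MYCN (0.64, 0.00467) and double transgenic tumours (0.72, 0.00345) and not called in mutALK tumours (0.04, 0.895). It was higher in double transgenic than in mutALK tumours (0.68, 0.021), a call lost with the mean of its probe sets (0.23, 0.49), with only the arrays compared (0.0882) and without mutALK 1, mutALK 2 or double transgenic 2 (0.57 to 0.6, 0.0756 to 0.0855). Smad9, the remaining receptor-regulated SMAD of the BMP branch, was called in no comparison (-0.02, -0.07 and -0.17 in mutALK, MYCN and double transgenic minus adrenal). Smurf2, a ubiquitin ligase that acts on SMADs and receptors, was lower in mutALK than in MYCN tumours (-0.74, 0.00125).

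**Figure D5:**
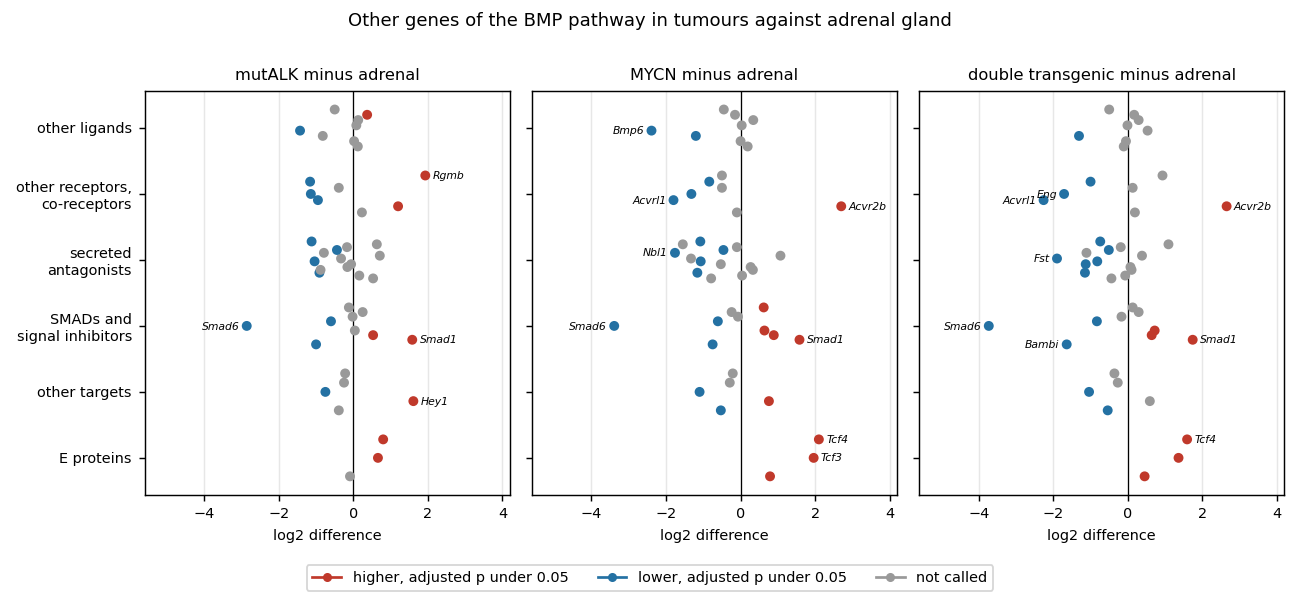
Log2 difference from adrenal gland of the 46 other measured pathway genes, a point each, by list and tumour group (mutALK, MYCN, double transgenic), with called genes of at least 1.5 log2 units named. Smad6 lies farthest to the left in each panel at -2.86, -3.39 and -3.73, and Acvr2b farthest to the right in MYCN and double transgenic tumours at 2.7 and 2.65.

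Among the other receptors and co-receptors Acvr2b differed most from adrenal gland. Acvr2b, a type II receptor shared with activins, was at 7.72, 7.32 and 7.71 in mutALK, 9.65, 8.99, 8.94 and 8.74 in MYCN and 9.03, 9.15 and 8.92 in the double transgenic tumours, against 6.3, 6.6 and 6.24 in adrenal gland. It was higher by 1.2 ± 0.21 (adjusted p = 0.000931), 2.7 ± 0.2 (9.09e-07) and 2.65 ± 0.21 (2.28e-06), and lower in mutALK than in MYCN tumours (-1.5, 0.000308). With the mean of its probe sets the MYCN difference from adrenal gland was 1.6. Rgmb, a BMP co-receptor of neurons, was higher in mutALK tumours than in adrenal gland (1.93, 0.0025; 1.13 with the mean of its probe sets) and in MYCN tumours (2.43, 0.00073), and higher in the double transgenic tumours than in MYCN tumours (1.43, 0.0296). Acvrl1 and Eng, the endothelial type I receptor and co-receptor, were lower in mutALK (-0.95, 0.00787; -1.14, 0.000132), MYCN (-1.8, 3.89e-05; -1.32, 1.43e-05) and double transgenic tumours (-2.26, 1.44e-05; -1.71, 4.39e-06), and Eng is also in the endothelial list above. Acvr2a, another type II receptor, was higher in mutALK tumours than in MYCN tumours (0.33, 0.0341), a call lost without mutALK 2 or 3 or MYCN 2, 3 or 4 (0.3 to 0.34, 0.0625 to 0.115), without the liver arrays (0.35, 0.181), with the title number as a random block (0.31, 0.0887) and with sex as a covariate (0.35, 0.0519).

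Of 8 other ligands Bmp6 changed most. It was at 6.04, 4.78 and 5.23 in mutALK, 4.08, 4.55, 4.19 and 4.74 in MYCN and 8.16, 6.95 and 6.82 in the double transgenic tumours, against 6.83, 7.05 and 6.47 in adrenal gland. Double transgenic tumours thus kept Bmp6 in or above the adrenal range, and it was higher there than in MYCN tumours by 2.92 ± 0.35 (adjusted p = 0.000829) and than in mutALK tumours by 1.96 ± 0.38 (0.00894). Against adrenal gland Bmp6 was lower in mutALK (-1.43, 0.0115) and MYCN tumours (-2.39, 0.000175). Bmp5 was lower in MYCN (-1.2, 0.00482) and double transgenic tumours (-1.31, 0.00448; -0.74 with the mean of its probe sets). Gdf2, a ligand of Acvrl1, was higher in mutALK tumours by 0.37 (0.0457), a call that did not hold under 15 of 25 alternatives, among them leaving out any mutALK array (0.34 to 0.4, 0.0699 to 0.125), MYCN 2, 3 or 4 (0.37, 0.0595 to 0.0628) or adrenal 1 or 3 (0.38 and 0.32, 0.0919 and 0.14).

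Secreted antagonists and modulators, most of which act on BMPs outside the cell, were lower than in adrenal gland where they were called. Of 14, 4, 5 and 6 were lower in the mutALK, MYCN and double transgenic tumours, beside 20.3%, 24.2% and 23.7% of all genes. None was higher, beside 20.5%, 25% and 23.9% of all genes. Nog, Chrd, Dand5 and Twsg1 were lower in each group. Nog differed by only -0.44, -0.46 and -0.51. It was near the level of absent Y-linked genes (3.4 to 3.82 in tumours, 3.99 to 4.22 in adrenal gland). For Chrd (chordin) the differences were -0.91 (adjusted p = 0.00256), -1.16 (0.00021) and -1.15 (0.000391). Nbl1 was lower in MYCN tumours (-1.76, 0.00458) and Fst (follistatin) in the double transgenic tumours (-1.9, 0.0171). Adrenal 2 had the highest value of both among the 13 arrays, at 8.6 and 9.15. Without adrenal 2 the Fst difference was -1.16 (0.0405). The Fst call was lost without double transgenic 2 (-1.7, 0.0633), with sex as a covariate (-1.74, 0.0684) and with only the arrays compared (0.0683). Without the liver arrays the Nbl1 difference was -1.14 (0.00216). Sostdc1, a BMP and Wnt antagonist, was at 7.01, 7.3 and 7.63 in double transgenic and 4.48 to 4.93 in MYCN tumours, higher by 2.64 ± 0.77 (0.0484). That call was lost under 12 of 25 alternatives, among them leaving out any MYCN or double transgenic array or mutALK 2 (2.48 to 2.79, 0.0645 to 0.147) and the mean of its probe sets (1.83, 0.0985). Bmper was higher in mutALK tumours than in MYCN tumours by 1.32 (0.0203), a call lost without the liver arrays (0.81, 0.377), with sex as a covariate (1.17, 0.0548) and without mutALK 1 or 3 or MYCN 1, 2 or 3 (1.11 to 1.3, 0.0503 to 0.0899).

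Among other targets Id4 was lower in each tumour group, at -0.75 in mutALK (adjusted p = 0.0304), -1.1 in MYCN (0.0018; -1.86 with the mean of its probe sets) and -1.04 in the double transgenic tumours (0.00426). Adrenal 2 had the highest Id4 of its group (7.68, against 6.71 and 6.68), with mutALK arrays at 6.08, 6.61 and 6.13. The Id4 calls in mutALK and double transgenic tumours were not put through the alternatives. Hey1, a target of BMP and Notch signals, was instead higher in mutALK (1.61, 0.000214) and MYCN tumours (0.76, 0.0125). Atoh8 was lower in MYCN (-0.53, 0.0162) and double transgenic tumours (-0.54, 0.0228). The Atoh8 call in the double transgenic tumours was lost without adrenal 2 (-0.34, 0.0741), adrenal 3 (-0.54, 0.0517), double transgenic 1 (-0.5, 0.0614), double transgenic 2 (-0.49, 0.0738) or the liver arrays (-0.31, 0.206), and with array weights (-0.28, 0.174) or only the arrays compared (0.117). Msx1 and Msx2 were not called.

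The E proteins, partners of the Id proteins, were mostly higher in the tumours. Tcf4 was at 11.49, 11.16 and 11.73 in mutALK, 12.79, 12.8, 12.75 and 12.7 in MYCN and 12.31, 12.47 and 11.97 in the double transgenic tumours, against 10.77, 10.33 and 10.89 in adrenal gland. No group overlapped another. The differences were 0.8 ± 0.18 (adjusted p = 0.0049), 2.1 ± 0.17 (1.85e-06) and 1.59 ± 0.18 (2.99e-05). Tcf3 gave 0.66 (0.013), 1.96 (2.55e-06) and 1.36 (7.9e-05), and Tcf12 0.79 (0.000771) in MYCN and 0.45 (0.0341) in the double transgenic tumours, with -0.09 in mutALK tumours not called. All 3 were lower in mutALK than in MYCN tumours (Tcf3 -1.3, 0.000257; Tcf4 -1.3, 0.000299; Tcf12 -0.88, 0.00114) and higher in double transgenic than in mutALK tumours (0.7, 0.0271; 0.79, 0.0186; 0.54, 0.0415).

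Genes with the most similar course over the 13 arrays were ranked by the mean absolute distance in log2 units after each gene's own mean was subtracted, for the 6 genes whose group means spanned at least 2 log2 units. For Bmpr1b these were Cartpt, a neuropeptide precursor, at a distance of 0.739, Synpo2 at 0.886 and Cacng5 at 1.02. Cartpt had group means of 14.17 in mutALK, 9.57 in MYCN and 12.8 in the double transgenic tumours, against 6.96 in adrenal gland. Bmp2 was closest to Ifih1 (0.198), Mmp19 (0.216) and Ly96 (0.235), and Bmp4 to Hibch (0.184), Rmdn1 (0.223) and Bckdha (0.227). Id1 was closest to Calr3 (0.2), Ropn1l (0.236) and Ddt (0.238), Id2 to D630024D03Rik (0.221), Stxbp6 (0.223) and Ppcs (0.231), and Id3 to Dbi (0.238), Dap (0.239) and Zfp36 (0.259). None of these is a gene of the pathway lists, and Bmpr1b, with the widest span, had the most distant neighbours.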

How the data were processed

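RNA of 13 tumour and adrenal samples had been hybridised to Affymetrix mouse arrays after QIAGEN RNeasy extraction and biotin labelling, per the labels' protocols. The deposited values are the authors' log2 expression summaries (RMA, background-corrected and quantile-normalized, in Partek, per the submitters' processing notes; versions are not given in the sources used here). Of 45101 probe sets 64 controls were left out. Symbols came from the platform annotation, and probe sets with several symbols were not used for genes.

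Differences between the 4 groups come from limma 3.58.1 (R 4.3.3), which estimated each group's mean from the 13 arrays together (lmFit, contrasts and eBayes; degrees of freedom 9 residual and 2.45 prior), tested two-sided and adjusted by Benjamini-Hochberg over 45037 probe sets. The fit was tested on simulated data. Differences are given ± SE, levels ± SD, and gene differences are on the log2 scale. Array number limits the precision, and detection calls were not used. Groups came from the labels.

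The 10 genes, the pathway and marker lists and the tests were chosen with earlier results of these data known. Other pathway genes named are, per list, up to 3 called genes with the largest difference from adrenal gland and up to 2 more between tumours. Genes named beside a count to complete it (Nog, Dand5, Twsg1, Smad4, Smad7, Smad9, Msx1 and Msx2) were chosen after their values were seen. Listed genes without a probe set of their own are not analysed here. Alternatives were centring, quantile normalization again, leaving out the dimmest 40% of probe sets, 1 probe set or the mean of all probe sets per gene, robust eBayes with a trend of the variance, array weights, only the arrays compared, the title number as a random block (2 pairs of tumour arrays share one), sex as a covariate, and leaving out the 5 liver arrays, adrenal 2 with double transgenic 1, or each array in turn. Figures used matplotlib 3.10.9 in Python 3.11.15.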

Additional observations from a re-analysis of the deposited data

Results flagged for a closer look

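In MYCN tumours the Id2 probe set 1422537_a_at read 8.88 in MYCN 4, apart from the other MYCN arrays at 8.46 to 8.47, with a gap of 0.966 of the group's range. All 4 arrays lay below every adrenal array (10.79 to 12.26). Of 25 such sets of 4 MYCN values tested 1 stood out in this way, and chance alone marks about 1 in 20.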

How the results depend on the processing

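Of the 60 differences of the 10 genes, 30 were called, and 22 of these kept direction and call under all 25 alternatives, among them Bmpr1b in mutALK and double transgenic tumours and Bmp2, Bmp4, Id1, Id2 and Id3 in each tumour group against adrenal gland. Of the 30 not called, 13 stayed so under all of them. The causes of the changes below were not tested. The number called of the 10 genes in mutALK minus MYCN was 3, and 5 with array weights or without adrenal 2 and double transgenic 1. It fell to 2 with sex as a covariate, with the title number as a block and without mutALK 2, MYCN 1, 2 or 3 or double transgenic 3. Against adrenal gland the 9 of MYCN and of double transgenic tumours fell to 6 without adrenal 3, and with sex to 6 and 7. In double transgenic minus MYCN it was 1, and 2 without double transgenic 1, with or without adrenal 2. In double transgenic minus mutALK it was 1, and 3 without the dimmest probe sets or without adrenal 2 and double transgenic 1, 2 with the mean of all probe sets, with array weights or without the liver arrays, 0 with only the arrays compared, and 1 to 4 when each array was left out (4 without adrenal 2, 3 without mutALK 3, 2 without double transgenic 1 or 3).

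Apart from Bmpr1a, differences whose direction turned lay between -0.24 (Id3) and 0.04 (Acvr1) after the turn. With the mean of all probe sets Bmpr1a was -0.33 in MYCN minus adrenal and -0.56 in double transgenic minus adrenal and -0.23 in double transgenic minus MYCN, Bmpr2 was -0.01 in mutALK minus adrenal and -0.1 in double transgenic minus MYCN, and Bmp7 was -0.02 in double transgenic minus MYCN. In double transgenic minus MYCN, Bmp7 also read -0.04 (quantile normalization again), -0.01 (sex), -0.15 (without liver arrays), -0.16 (without adrenal 2 and double transgenic 1) and -0.16 to 0.15 when each array was left out (below 0 without double transgenic 1, MYCN 1, at -0.05, or MYCN 3, at -0.04). In that comparison Id2 read -0.06 without liver arrays and -0.03 without double transgenic 1, with or without adrenal 2, Id3 read -0.24, -0.23 and -0.23 under the same settings and -0.07 without MYCN 1, and Acvr1 0.04 without MYCN 3. Leaving out each array gave -0.03 to 0.47 for Id2, -0.23 to 0.4 for Id3 and -0.23 to 0.04 for Acvr1. Bmp4 in mutALK minus MYCN ranged from -0.2 to 0.03 when each array was left out, the highest without MYCN 1. Without liver arrays mutALK is a lone array assumed to vary like the other groups. Arrays sharing a title number correlated at 0.417 by duplicateCorrelation. No paired analysis was possible because the groups share no replicate numbers in the labels. Levels near those of Y-linked genes in female arrays limit what can be seen below them.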
